A study of Saccharomyces cerevisiae with 12 samples.

Results

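The response of acetate-respiring yeast to the first hour without oxygen was read from 3 arrays, taken after 30, 45 and 60 min in pure nitrogen (N2). Members were the open reading frames (ORFs) with a value on all 3 arrays, 5816 of the 6150 in the table, and 5451 of them matched a gene of the R64 annotation. The strain was BY4741 of Saccharomyces cerevisiae, a haploid widely used in the laboratory, whose HIS3, LEU2, MET17 and URA3 genes are deleted in whole or part; exposed and reference cells share these deletions. They had been grown on glucose and then set on nylon membranes on solid YP acetate, where acetate has to be respired. The exposed cells lay in N2 and gave the Cy5 channel of each 2-colour array; the reference cells lay in room air on the same medium for the same time and gave the Cy3 channel. The series holds 12 arrays: N2 and carbon monoxide (CO), each at 6 times from 15 min to 24 h, with a single array for every gas and time and no dye swap. The labels describe the cell divisions of such cells as reversibly arrested under either gas. As there were no replicate arrays, the 3 times stood in for replicates, and every error below is a spread between times and not between cultures.

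Yeast cannot ferment acetate, so the electron transport chain is its main route to ATP on this medium, and oxygen is the final electron acceptor of that chain. Oxygen is also a substrate for making heme, ergosterol and unsaturated fatty acids. In the textbook account, heme activates Hap1 and the Hap2/3/4/5 complex in air, and these drive respiratory genes and the repressor Rox1; falling heme and sterol then release the hypoxic genes, which serve sterol uptake, fatty acid desaturation, the anaerobic cell wall and alternative isoforms of respiratory proteins.

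Values are log2 ratios of N2 over air, so that 1 is a 2-fold difference. Neither the base nor the direction of the ratio is stated; base 2 follows the values' range and the direction follows the dyes. The median log2 ratio over members was between -0.03 and 0.00 on the 3 arrays. The spread over members widened with time, from an SD of 0.543 at 30 min to 0.644 at 45 min and 0.732 at 60 min. The 30 and 60 min arrays each correlated more closely with the 45 min array (r = 0.764 and 0.735 across ORFs, which share 1 array's processing and are not independent) than with each other (r = 0.574). In bulk RNA, fewer cells in a given state and less RNA per cell cannot be told apart. A few spots carried lone extreme values: 5 values on the 3 arrays were below -4. Of the 4 genes that the strain lacks in whole or part, none passed the test below, and their means lay between -0.38 for HIS3 and -0.02 for URA3; a ratio between cells of 1 strain does not show whether a gene is present.

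In the mean of the 3 arrays tested against 0, 867 members were higher in N2 than in air (14.9% of those tested) and 1007 were lower (17.3%), at an adjusted p under 0.05 by limma. Of the 1874 called, 1872 had 1 sign on all 3 arrays, and the mean was at least 2-fold for 191 higher and 291 lower. At least 2-fold on each of the 3 arrays were 55 members higher (0.946%) and 129 lower (2.22%). Most called members stood in none of the 38 gene lists read here (1456 of 1874). The calls lean on the 45 min array: without it the smallest adjusted p was 0.0527, so that no call passed, and 1535 members had an unadjusted p under 0.05. That loss covers every call against air given below. Subtracting each ORF's ratio at 15 min in N2, which also removes a constant dye effect, left 414 of the 1874 called and turned the sign of 95. The same 15 min array is taken from all 3, so its own error is shared and does not enter the spread. Calls with it subtracted are therefore too liberal, and they do not establish a change after 15 min. Calls lost without the 30 or the 60 min array are named with their genes.

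The highest mean belonged to IZH4 (YOL101C), a membrane protein of the zinc homeostasis family. Its log2 ratio was 0.73 at 30 min, 2.37 at 45 min and 3.93 at 60 min, a mean of 2.34 ± 0.53 (SE of the fit, n = 3 times) or 5.07-fold. The 3 values climbed throughout, and the ratio was -0.09 at 15 min and 5.81 at 120 min. ISU1 (YPL135W), the scaffold on which mitochondria build iron-sulfur clusters, stood at 0.84, 2.49 and 2.55, with a step between 30 and 45 min. FHN1 (YGR131W), a plasma membrane protein, hardly moved over the period, at 1.75, 2.05 and 1.97 (mean 1.92 ± 0.14, adjusted p = 0.00354). SPG1 (YGR236C), a stationary-phase gene, had a mean of 1.92, ICY1 (YMR195W) one of 1.77 and SDS24 (YBR214W) one of 1.72. SDS24 rested on 1 high value, 3.26 at 45 min against 0.68 and 1.21. CIN5 (YOR028C), a bZIP transcription factor of the AP-1 family, had a mean of 1.67, and IGD1 (YFR017C), an inhibitor of glycogen debranching, one of 1.63. YIL059C and YLR162W, which have no function given in the annotation used, had means of 1.74 and 1.57. Without the 60 min array the calls of IZH4 (adjusted p = 0.0586), ISU1 (0.052), SDS24 (0.0846) and IGD1 (0.0956) were lost.

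The lowest mean belonged to RNR1 (YER070W), the large subunit of ribonucleotide reductase, which makes deoxynucleotides for DNA synthesis. Its log2 ratio was -3.52 at 30 min, -2.42 at 45 min and -2.11 at 60 min, a mean of -2.68 ± 0.27 or 6.42-fold lower (adjusted p = 0.00354). All 3 values were far below 0, the 30 min value most. HOM3 (YER052C), the aspartate kinase that opens threonine and methionine synthesis, stood at -1.80, -2.63 and -2.56. ILV5 (YLR355C), an enzyme of branched-chain amino acid synthesis, was at -1.77, -1.96 and -2.91. Both lay below -1.7 on every array.
PHO84 (YML123C), the high-affinity phosphate transporter, gave close values of -2.17, -2.31 and -1.99, after 0.08 at 15 min. The other low members were of several kinds: UPS2 (YLR168C, mean -2.14), which acts in mitochondrial phospholipid transfer; NUC1 (YJL208C, -2.10), the mitochondrial nuclease; SEC63 (YOR254C, -2.04), part of the translocation channel of the endoplasmic reticulum; ATX2 (YOR079C, -1.94), a Golgi protein of manganese balance; and ANK1 (YGL242C, -2.12). The remaining members of the lowest 12 make ribosomes: RPS0B (YLR048W, -2.04) and RPS1A (YLR441C, -1.94) of the small subunit, and UTP6 (YDR449C, -2.03) of the processome that cuts the 18S rRNA precursor. None of these 12 calls was lost without the 30 min or the 60 min array.

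**Figure D1:**
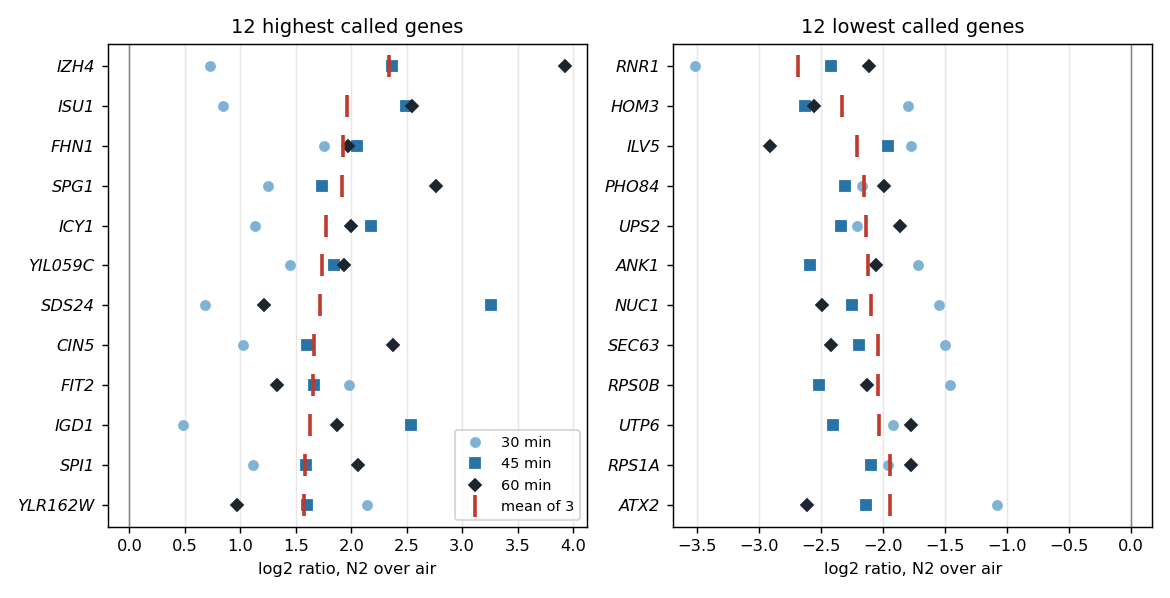
Log2 ratio of N2 over air (x axis) for the 12 called and annotated genes with the highest mean (left) and the 12 with the lowest (right). Symbols give the 30, 45 and 60 min arrays and the vertical bar their mean; IZH4 spreads from 0.73 to 3.93, while FHN1 and PHO84 have all 3 arrays close together.

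Among 16 regulators of the oxygen and heme response, 1 rose (6.2%) and 2 fell (12.5%), shares below the 14.9% and 17.3% over all members. SUT1 (YGL162W), a transcription factor of hypoxic genes and sterol uptake, was at 1.51, 1.68 and 1.52, a mean of 1.57 ± 0.13 (adjusted p = 0.00354). Its ratio was already 1.43 at 15 min, it stayed at 2.13 at 120 min and 1.47 at 24 h, and it stood at 0.14 with the 15 min ratio subtracted. ROX1, the repressor of hypoxic genes, was at -1.16, -1.07 and -0.37 (mean -0.87 ± 0.19, adjusted p = 0.017), nearest to 0 at 60 min. HAP4, the limiting activator subunit for respiratory genes, was at -1.28, -0.57 and -0.53 (mean -0.79 ± 0.19, adjusted p = 0.0216), after -0.75 at 15 min. Both calls were lost without the 30 min array (adjusted p = 0.0749 for ROX1 and 0.0619 for HAP4), and HAP4 stood at -0.04 with the 15 min ratio subtracted. MOT3, a repressor that acts with Rox1, was at -0.22, -1.58 and -0.63 and missed the threshold (adjusted p = 0.0534). HAP1, the heme-responsive activator, was at -0.21, -0.09 and -0.54. UPC2, an activator of sterol genes, stayed between -0.04 and 0.00, and its relative ECM22 was at 0.28, 0.98 and 0.25. MGA2, which activates the fatty acid desaturase gene OLE1, was at 0.04, 0.55 and 0.86. None of these 4 passed, nor did the other 8, whose means lay between -0.41 for SUT2 and 0.36 for TUP1.

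The list of 22 hypoxic genes and their aerobic partners held 5 members that rose (22.7%, against 14.9% over all members) and 3 that fell (13.6%, against 17.3%), with a median of 0.23 against -0.02 over all members. OLE1, the desaturase that needs oxygen to make unsaturated fatty acids, was at 0.50, 1.11 and 2.91 (mean 1.51 ± 0.42, adjusted p = 0.0369). It climbed on each array and stood at 2.94 at 120 min. The cell wall mannoprotein genes TIR1 (1.09, 0.75 and 0.86) and TIR2 (0.93, 0.81 and 0.76) rose by like amounts. FET4, a low-affinity iron and copper transporter, was at 1.12, 0.89 and 0.73, after 0.90 at 15 min. HMG2, the hypoxic isoform of the enzyme that commits carbon to sterols, was at 0.50, 0.61 and 0.37, while its aerobic partner HMG1 was at -0.24, 0.44 and -0.30 and did not pass.
The other 14 did not pass the test. COX5B, the hypoxic isoform of a cytochrome oxidase subunit, was at 0.16, 0.39 and 1.5, and CYC7, the hypoxic cytochrome c, at -0.09, 0.79 and 1.48 (adjusted p = 0.0905 and 0.0931). Both were highest on the 60 min array and reached 1.70 and 2.31 at 120 min. ANB1 (0.30, 0.06 and 0.09), DAN1 (0.15, 0.35 and 0.45), AAC3 (0.23, 0.05 and -0.45) and the sterol importer gene AUS1 (0.44, -0.10 and -0.42) lay near 0. The aerobic isoform COX5A was at -0.29, 0.43 and 1.22, and HYP2 and PET9, the aerobic partners of ANB1 and AAC3, were at -0.17, 0.15 and 0.09 and at -0.08, -0.63 and -0.59. CPR1, PDR11, TIR4 and HEM14 had means of 0.35, 0.52, -0.03 and -0.22.
The 3 that fell were ERG11, HEM13 and EUG1. HEM13, which uses oxygen in heme synthesis and is a classic Rox1 target, was at -0.57, -0.64 and -0.74 (mean -0.65 ± 0.13, adjusted p = 0.0135), lower on every array. Without the 60 min array the calls of OLE1 (adjusted p = 0.0524), HMG2 (0.0552) and EUG1 (0.0562) were lost, as were those of HMG2 (0.088) and EUG1 (0.137) without the 30 min array; with the 15 min ratio subtracted 1 rose and 1 fell.

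**Figure D2:**
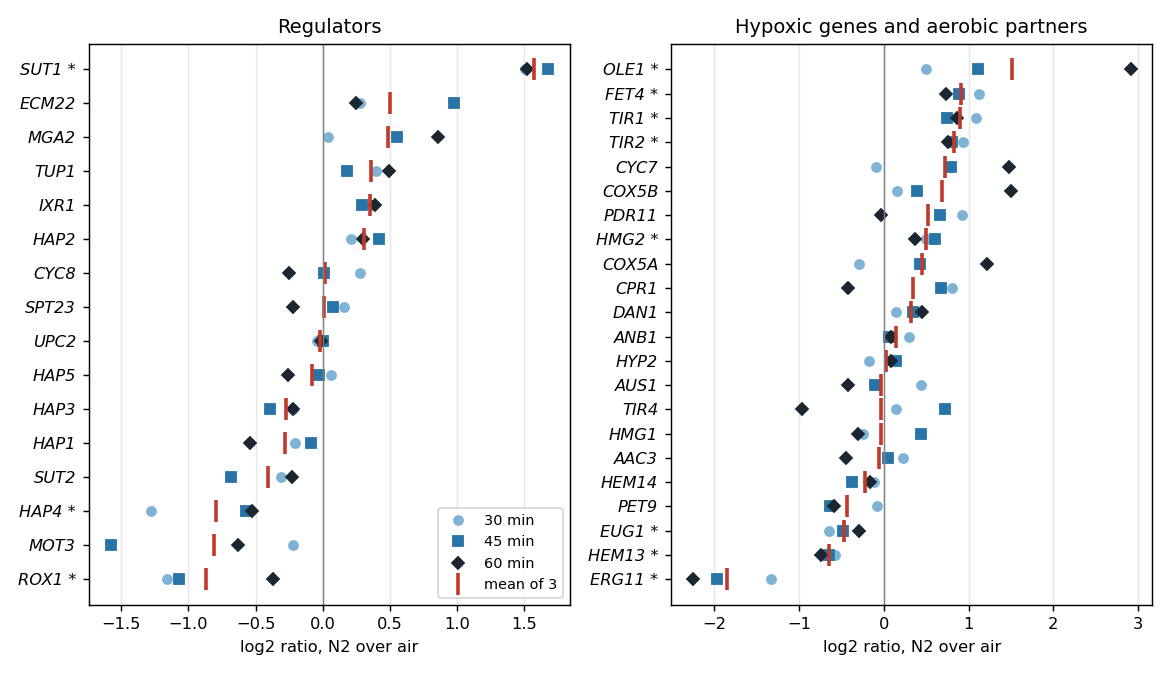
Log2 ratio of N2 over air (x axis) for 16 regulators of the oxygen response (left) and 22 hypoxic genes with their aerobic partners (right). Symbols give the arrays, the vertical bar the mean, and an asterisk a call at an adjusted p under 0.05; SUT1 has all 3 values between 1.51 and 1.68, and OLE1 spreads from 0.50 to 2.91.

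The seripauperins are small cell wall proteins of a large subtelomeric family, many of which are known to be made without oxygen. Of 18 measured, 11 rose (61.1%), 17 were above 0 on all 3 arrays, and the median was 0.61. The largest was PAU7, at 1.18, 1.05 and 0.85 (mean 1.03 ± 0.14, adjusted p = 0.00474). PAU5 was at 1.13, 1.28 and 0.49 and PAU2 at 1.00, 1.10 and 0.56, both lowest at 60 min, while PAU13 climbed through 0.50, 0.79 and 1.26. The family's genes are near-identical and their probes are unknown here, so that 1 member can carry the signal of another and the 18 are not independent. The count was 6 without the 30 min array, where PAU5 was among the losses (adjusted p = 0.0572), 9 without the 60 min array and 5 with the 15 min ratio subtracted.

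Of 27 genes of ergosterol synthesis and esterification, 9 fell (33.3%, against 17.3% over all members) and 2 rose (7.4%, against 14.9%), with a median of -0.27. The pathway uses oxygen at several steps, among them those of Erg1, Erg11, Erg25, Erg3 and Erg5. ERG11, the lanosterol demethylase, was at -1.33, -1.97 and -2.25 (mean -1.85 ± 0.20, adjusted p = 0.00354), deeper on each array. ERG25, a sterol methyl oxidase, was at -0.85, -1.80 and -2.06, and ERG2, the sterol isomerase, at -0.85, -1.81 and -2.22, with a like course. ERG3, the C-5 desaturase, was at -0.85, -1.29 and -1.49. All 4 were lower still at 120 min, between -3.10 and -2.48. The count of lower calls was 8 without either the 30 or the 60 min array and 3 with the 15 min ratio subtracted. ERG11 and ERG2 were among these 3, at -0.94 and -1.13. The error of the 15 min array does not enter that fit, so a change from 15 min is not established for them.

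Some genes of acetate respiration were called lower, and most were not called. Of 19 genes of the tricarboxylic acid cycle, 5 fell (26.3%, against 17.3% over all members) and 14 did not pass, with a median of -0.35. IDH1, a subunit of isocitrate dehydrogenase, was at -0.94, -1.37 and -1.13 (mean -1.15 ± 0.14, adjusted p = 0.00436). Its partner IDH2 was at -1.02, -1.12 and -0.27, KGD1, of the 2-oxoglutarate dehydrogenase, at -0.84, -0.74 and -0.99, and MDH1, the mitochondrial malate dehydrogenase, at -0.82, -0.77 and -0.85. IDH2 was the one of these 4 with a value above -0.7. A list of 18 genes held the glyoxylate shunt, gluconeogenesis and other acetate use, with transporters and regulators. Of these, 6 fell (33.3%, against 17.3% over all members) and 12 did not pass, with a median of -0.31. MDH2, the cytosolic malate dehydrogenase, was at -1.17, -0.72 and -1.76, and SFC1, the succinate-fumarate carrier that feeds acetate carbon to gluconeogenesis, at -1.28, -1.12 and -0.86. The shunt enzymes ICL1 (-1.08, -0.99 and -0.55) and MLS1 (-1.0, -0.71 and -0.74) were furthest from air at 30 min. Without the 30 min array the call of IDH2 was lost (adjusted p = 0.102). The glyoxylate count was 4 without either the 30 or the 60 min array and 1 with the 15 min ratio subtracted.

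The respiratory chain itself gave few calls. Of 16 genes of complexes III and IV and cytochrome c, 1 rose and 1 fell, and the same was true of 14 ATP synthase genes; of 10 dehydrogenase genes that feed the chain, 1 fell. These shares are below the 14.9% and 17.3% over all members. CYT1, cytochrome c1, was at -0.50, -0.59 and -0.65, QCR9, a small subunit of complex III, at 0.84, 0.40 and 1.63, and INH1, which keeps the ATP synthase from running backward, at 0.35, 1.39 and 0.60. ATP3, of the synthase's central stalk, was at -0.48, -0.71 and -0.55, and NDE1, the external NADH dehydrogenase, at -0.49, -0.43 and -0.48. Each of these 5 calls was lost without the 60 min array (adjusted p = 0.0537 to 0.0898), and those of QCR9 (0.0791) and NDE1 (0.0905) without the 30 min array. Of 53 mitochondrial ribosomal protein genes, with a median of -0.18, 11 fell (20.8%, near the 17.3% over all members) and 5 rose (9.4%, below the 14.9%). Among them RSM22 was at -0.95, -1.06 and -1.72 and MRPS8 at -0.89, -0.74 and -0.92, while MRPS12 was at 0.52, 1.56 and 1.61. The lower count was 6 without the 30 min array and 5 without the 60 min array, and MRPS12 was lost without the latter (adjusted p = 0.062).

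Of 18 glycolytic genes tested, 8 rose (44.4%) and 10 did not pass, with a median of 0.46. ENO2, an enolase, gave the same ratio on each array, 1.06, 1.05 and 1.03 (mean 1.05 ± 0.13, adjusted p = 0.00402). GPM1, the phosphoglycerate mutase, fell back through 1.85, 1.07 and 0.35, and TDH1, a glyceraldehyde-3-phosphate dehydrogenase, was at 0.89, 0.58 and 1.77. GLK1, the glucokinase, was at 0.67, 1.52 and 0.74. Without the 30 min array the calls of GPM1 (adjusted p = 0.0795) and TDH1 (0.0567) were lost. The count was 6 without the 30 min array, 8 without the 60 min array and 1 with the 15 min ratio subtracted, where the median of the list at 15 min was 0.16.

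Of 18 genes of fermentation and glycerol metabolism, 7 rose (38.9%) and 4 fell (22.2%), against 14.9% and 17.3% over all members. PDC6, a minor pyruvate decarboxylase, was at 0.98, 1.12 and 1.21 (mean 1.10 ± 0.13, adjusted p = 0.00402), and ALD2, a cytosolic aldehyde dehydrogenase, at 0.51, 0.78 and 1.36. Both glycerol-phosphate phosphatase genes fell: GPP1 was at -0.92, -1.31 and -0.72 and GPP2 at -0.87, -1.52 and -0.68. Of 18 genes of hexose transport and glucose sensing, 6 rose (33.3%) and 1 fell (5.6%), against the same 14.9% and 17.3%. Their median was 0.33. HXT6 was at 0.97, 0.96 and 1.58 (mean 1.17 ± 0.17, adjusted p = 0.00582) and HXT3 at 0.60, 1.29 and 0.85. HXT7 was at 0.57, 0.67 and 1.97 and HXT4 at 0.66, 0.49 and 0.49. HXT6 and HXT7 are near-identical and their values may share signal. The higher count of the fermentation list was 3 without the 30 min array and 1 with the 15 min ratio subtracted. That of the hexose list was 2 without the 30 min array and 0 by limma with the 15 min ratio subtracted (6 at an unadjusted p under 0.05). The calls of HXT7 (adjusted p = 0.0508) and HXT4 (0.0774) were lost without the 30 min array, and that of HXT4 (0.0538) also without the 60 min array.

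Of 18 genes of the reserve carbohydrates trehalose and glycogen, 10 rose (55.6%), 1 fell and 7 did not pass, with medians of 0.28, 0.56 and 0.67 on the 3 arrays. GLC3, the glycogen branching enzyme, was at 1.08, 1.04 and 1.47 (mean 1.20 ± 0.15, adjusted p = 0.00418). GAC1, which directs a phosphatase to glycogen synthase, was at 1.23, 0.74 and 1.07, and GSY1, a glycogen synthase, at 0.54, 1.14 and 1.21. UGP1, which makes UDP-glucose, went from 0.25 to 2.20 and 1.97. Without the 60 min array 6 rose, and UGP1 was lost (adjusted p = 0.13); with the 15 min ratio subtracted 2 did.

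**Figure D3:**
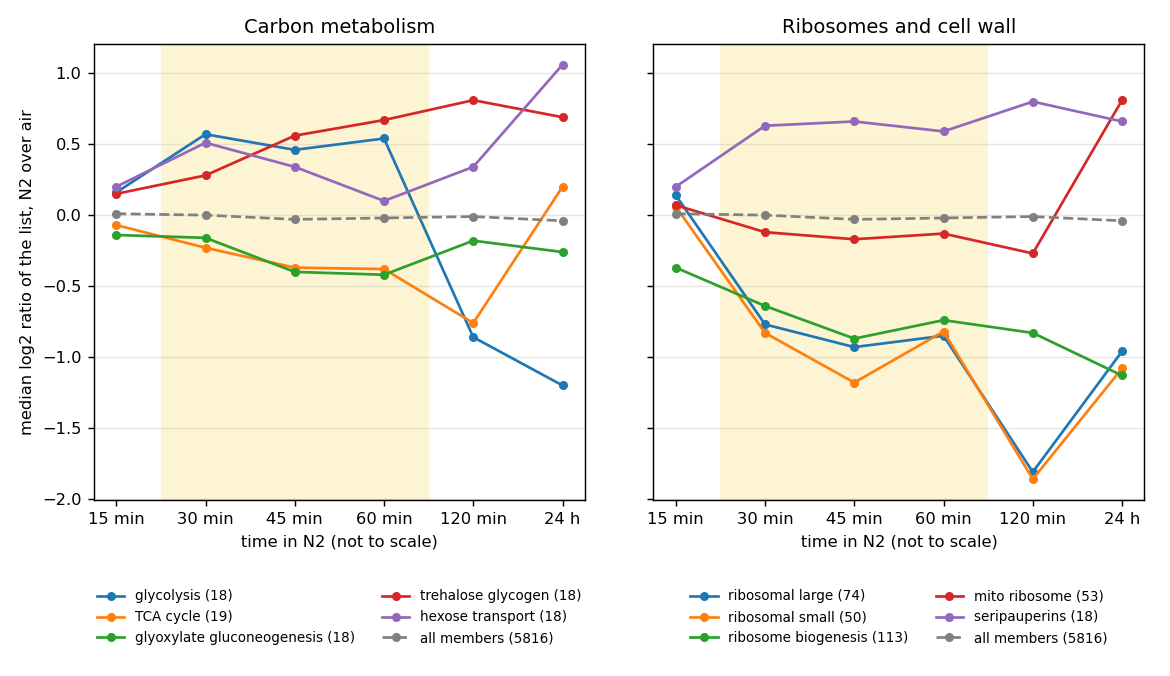
Median log2 ratio of each list (y axis) on the 6 N2 arrays (x axis, not to scale), for carbon metabolism (left) and for ribosomes and cell wall (right); the shaded band marks 30, 45 and 60 min and the dashed line all 5816 members. Glycolysis is at 0.57, 0.46 and 0.54 in the band and at -0.86 at 120 min, while both ribosomal lists start near 0 at 15 min and lie below -0.7 from 30 min on.

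Ribosome genes made up the largest block of lower calls among the lists. Of 113 genes of ribosome biogenesis 77 fell (68.1%, median -0.71), of 74 genes of the large ribosomal subunit 47 fell and 2 rose (median -0.86), and of 50 genes of the small subunit 31 fell (62.0%, median -0.86). The biogenesis list was already low at 15 min, with a median of -0.37, whereas the ribosomal protein lists were at 0.14 and 0.06 there. With the 15 min ratio subtracted, 52 large-subunit and 32 small-subunit genes were lower, against 19 of biogenesis. These counts leave out the error of the 15 min array, so they do not establish a change from 15 min. The count of lower biogenesis genes was 64 without the 30 min array and 59 without the 60 min array.
Within biogenesis, NIP7, which matures the large subunit, was at -1.59, -1.58 and -2.18, and NOP56, a core protein of the box C/D particles that methylate rRNA, at -1.70, -2.53 and -1.08. HAS1, an RNA helicase, was at -1.72, -1.87 and -1.28. For some ribosomal proteins both gene copies were among the named genes, and both lay below air. They were RPL6A (-1.49, -1.86 and -1.78) and RPL6B (-1.67, -2.23 and -1.74), RPL17A (-1.49, -1.88 and -1.87) and RPL17B (-1.25, -1.99 and -1.87), and RPS1A (-1.96, -2.10 and -1.77) and RPS1B (-1.46, -2.06 and -2.08). The naming rule picks the largest changes, and other pairs of copies were not compared. The copies of such a gene are alike in sequence and their signals may not be separate.
Of 23 genes of RNA polymerases I and III, which transcribe rRNA and tRNA, 10 fell (43.5%) and 1 rose (4.3%). RPA49 of polymerase I was at -1.70, -1.85 and -2.07, and RPC82 of polymerase III at -1.16, -1.64 and -1.34. Of 33 translation factor genes 10 fell (30.3%) and 1 rose (3.0%), against 17.3% and 14.9% over all members. NIP1, a core subunit of initiation factor 3, was at -1.19, -0.95 and -1.17, and YEF3, an elongation factor of fungi, at -0.81, -0.71 and -1.04. The 1 that rose was HEF3, the little-used copy of YEF3, at 0.53, 0.76 and 0.87. The lower count of translation factors was 5 without the 30 min array.

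**Figure D4:**
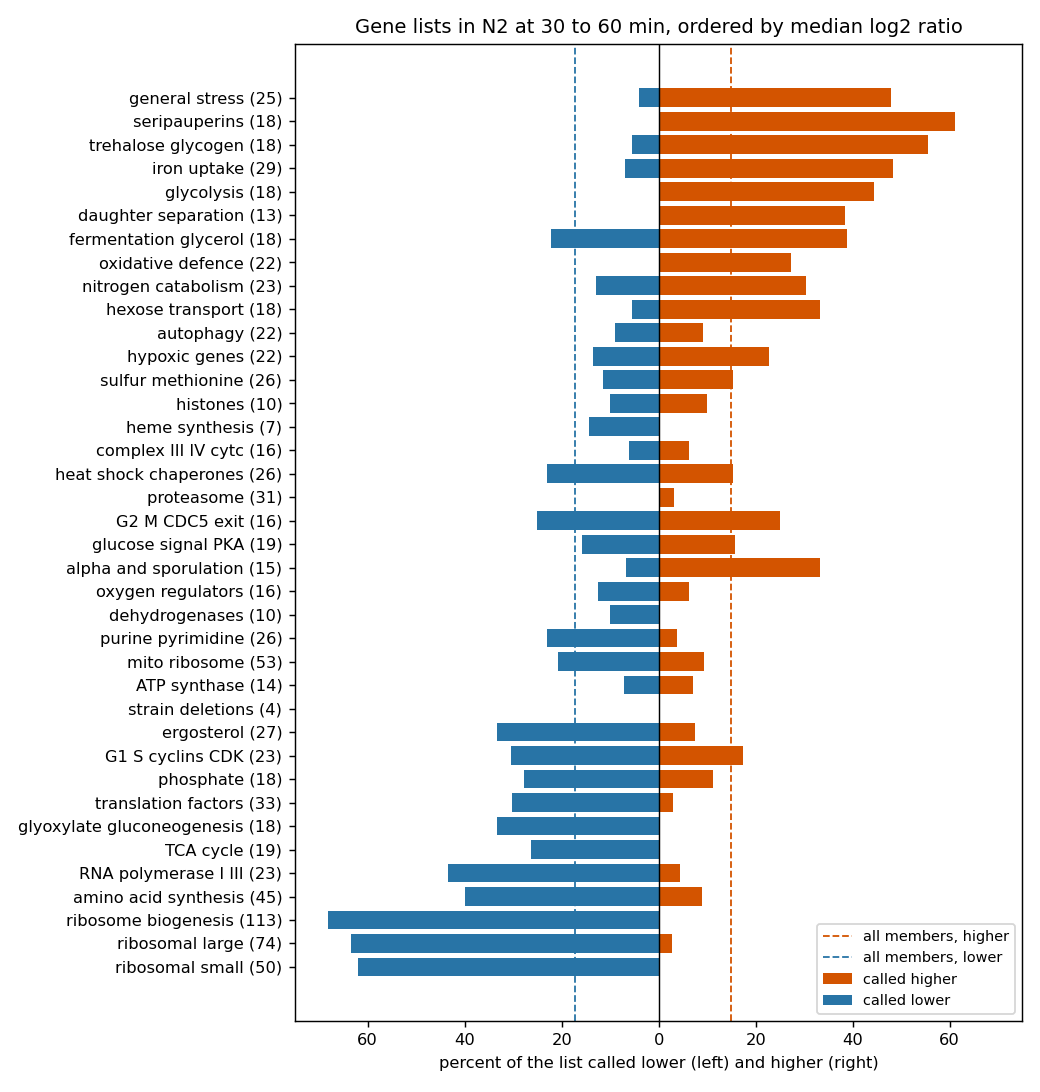
Percent of each gene list called lower (bars to the left) and higher (bars to the right), with the number of members tested in parentheses and the lists ordered by their median log2 ratio. Dashed lines mark the share over all members, 17.3% lower and 14.9% higher; both ribosomal lists and ribosome biogenesis have more than 60% lower, and seripauperins 61.1% higher.

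Of 45 genes of amino acid synthesis, 18 fell (40.0%), 4 rose and 23 did not pass, with a median of -0.44. Besides HOM3 and ILV5, ARO4, which opens aromatic amino acid synthesis, was at -1.03, -1.24 and -1.87 and HIS7, of histidine synthesis, at -0.55, -1.22 and -2.20; both deepened with each array. Of 26 purine and pyrimidine genes, 6 fell (23.1%) and 1 rose (3.8%), against 17.3% and 14.9% over all members. URA7, a CTP synthase, was at -1.42, -2.25 and -1.57, GUA1, which makes GMP, at -0.47, -1.13 and -1.11, ADE4, which opens purine synthesis, at -0.74, -0.95 and -1.01, and FUR1, which salvages uracil, at -0.41, -1.08 and -0.87. The count of lower amino acid genes was 9 without the 60 min array and 6 with the 15 min ratio subtracted, and GUA1 (adjusted p = 0.0571) and FUR1 (0.0674) were lost without the 60 min array.

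Nutrient genes went different ways. Of 18 phosphate genes 5 fell (27.8%) and 2 rose (11.1%), against 17.3% and 14.9% over all members. After PHO84, PHO81, an inhibitor of the phosphate-sensing kinase, was at -0.67, -1.58 and -2.06, and VTC4 and VTC3, of the vacuolar polyphosphate polymerase, were at -0.92, -0.94 and -1.65 and at -0.66, -1.35 and -1.37. PHO84 and all 3 of these were near air at 15 min, between -0.25 and 0.14. Of 23 genes under nitrogen catabolite control 7 rose (30.4%) and 3 fell (13.0%). The ammonium transporter MEP1 was at 1.5, 1.29 and 1.18 (mean 1.32 ± 0.14, adjusted p = 0.00354), MEP2 at 1.03, 0.77 and 0.58, and the general amino acid permease GAP1 at 1.36, 1.25 and 0.65. These 3 were highest at 30 min, while GDH3, a glutamate dehydrogenase, was highest at 60 min (0.68, 0.81 and 2.87). Of 26 sulfur and methionine genes 4 rose (15.4%) and 3 fell (11.5%), shares near or below those over all members. Among them MMP1, the S-methylmethionine permease, was at 1.15, 1.27 and 0.78, MET2 at 0.76, 0.91 and 0.56, MET22 at -0.86, -1.30 and -1.33 and MET14 at -0.73, -0.87 and -1.10. GDH3 was lost without the 30 min array (adjusted p = 0.058), where the higher count of the nitrogen list was 4; it was 1 with the 15 min ratio subtracted.

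Of 29 iron genes 14 rose (48.3%) and 2 fell, with a median of 0.49. FIT2 (YOR382W), a cell wall mannoprotein that holds siderophore iron, was at 1.98, 1.66 and 1.33 (mean 1.66 ± 0.16, adjusted p = 0.00354), highest at 30 min. The 2 that fell act in high-affinity iron uptake, and no other iron gene tested was called lower. FTR1, the permease, was at -1.10, -2.21 and -2.10 and CCC2, which loads copper for the oxidase of that uptake, at -0.76, -1.60 and -1.61. FTR1 was at -1.18 already at 15 min. The higher count was 7 without the 30 min array, and with the 15 min ratio subtracted it was 0 by limma (6 at an unadjusted p under 0.05); the median of the list at 15 min was 0.22.

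Of 25 general stress genes 12 rose (48.0%) and 1 fell, with medians of 0.08, 1.05 and 0.95 at 30, 45 and 60 min. SPI1, a cell wall protein of stationary phase, was at 1.11, 1.59 and 2.06 (mean 1.59 ± 0.20, adjusted p = 0.00428), GRE2, a methylglyoxal reductase, at 2.11, 1.79 and 0.79, YGP1, a secreted glycoprotein, at 1.26, 1.53 and 1.09, and HOR7 at 1.27, 1.90 and 0.62. SPI1 climbed while GRE2 declined. Of 26 heat shock and chaperone genes 4 rose (15.4%) and 6 fell (23.1%), shares near those over all members; among them were HSP42, a small heat shock protein, at 0.66, 1.23 and 1.37, and CUR1, which sorts misfolded proteins, at -1.66, -1.74 and -1.42. YDJ1, a partner of cytosolic Hsp70, was at -1.31, -1.31 and -0.94, but its ratio was -1.31 at 15 min too, and SSE1, an exchange factor of Hsp70, was at -1.55, -1.04 and -0.89. Of 22 genes of oxidative defence 6 rose (27.3%, against 14.9% over all members). TRX2, a thioredoxin, was at 0.52, 0.80 and 1.59, OYE3 at 1.02, 1.09 and 0.57, GRX2, a glutaredoxin, at 0.47, 0.65 and 1.32, and TSA2, a peroxiredoxin, at 0.40, 0.83 and 1.11. The stress count was 14 without the 30 min array, 7 without the 60 min array and 4 with the 15 min ratio subtracted. That of oxidative defence was 3 without the 60 min array and 0 by limma with the 15 min ratio subtracted (4 at an unadjusted p under 0.05). Lost were HOR7 without the 30 min array (adjusted p = 0.055) and GRX2 (0.0571) and TSA2 (0.0666) without the 60 min array.

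In the cell cycle lists, 7 of 23 genes of G1 and S phase fell (30.4%) and 4 rose (17.4%), against 17.3% and 14.9% over all members. Beside RNR1, the low members were CDC6, which licenses origins (-0.96, -1.05 and -1.11), POL1, the catalytic subunit of the priming DNA polymerase (-0.81, -0.99 and -0.97), and FAR1, an inhibitor of G1 cyclin kinase (-1.19, -0.94 and -0.65). CDC6 and POL1 each gave 3 close values, while FAR1 came back toward air. Of 16 genes of G2, M and mitotic exit 4 fell (25.0%) and 4 rose (25.0%). CLB2, the main mitotic cyclin, was at -0.74, -1.15 and -1.19, while PDS1, the securin, was at 0.75, 0.73 and 0.49 and DBF2, a kinase of mitotic exit, at 0.62, 0.85 and 0.55. Of 10 histone genes 1 fell (10.0%) and 1 rose (10.0%), shares below those over all members. They were HTB1 at -1.18, -0.57 and -0.56 and the variant HTZ1 at 0.51, 0.80 and 0.36. Lost without the 30 min array were HTB1 (adjusted p = 0.0587), HTZ1 (0.0792) and PDS1 (0.0569).
Of 13 genes of daughter cell separation and the wall 5 rose (38.5%). CTS1, the chitinase that parts mother and daughter, was at 1.33, 1.35 and 1.17 (mean 1.28 ± 0.13, adjusted p = 0.00354), and the wall proteins PIR3 and PIR1 were at 1.89, 1.34 and 0.42 and at 1.37, 0.88 and 0.14. CTS1 held its level over the period and both PIR genes fell back toward air. At 15 min PIR3 stood at 1.35 and PIR1 at 1.00, so that neither was higher with that ratio subtracted. The count was 1 without the 30 min array, where PIR1 (adjusted p = 0.159) and PIR3 (0.0695) were lost.

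Lists with shares near or below the background were proteasome (1 of 31 rose, PUP1 at 0.19, 1.05 and 0.66), autophagy (2 of 22 rose and 2 fell), heme synthesis (1 of 7 fell, HEM13) and the signalling list of glucose and protein kinase A (3 of 19 rose and 3 fell). The proteasome median moved from -0.39 at 30 min to 0.50 at 60 min. In the signalling list TPK3, a catalytic subunit of protein kinase A, was at -1.41, -1.05 and -0.97, SNF1, the kinase needed for growth on acetate, at -0.43, -0.61 and -0.42, and RIM15, a kinase of quiescence, at -0.25, -0.77 and -1.43. ATG1, the kinase that starts autophagy, was at -0.54, -0.54 and -1.05, and ATG5, of the conjugation system, at 0.39, 0.93 and 0.76. Of 15 genes of alpha-cell mating and of sporulation 5 rose (33.3%) and 1 fell (6.7%), against 14.9% and 17.3% over all members. NDT80, the meiotic transcription factor, was at 0.89, 0.77 and 0.34 and DIT1, of the spore wall, at 0.82, 1.22 and 0.73. Signal over background is not stated, so it is unknown whether these genes were expressed above it. Without the 60 min array PUP1, SNF1, RIM15, ATG1 and ATG5 were lost (adjusted p = 0.0564 to 0.134), and without the 30 min array SNF1 (0.0753) and NDT80 (0.0857).

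Within the called members, some still moved between 30 and 60 min by 1 or more on the log2 scale. Of those called higher, 43 rose by that much and 14 fell back by it. Of those called lower, 45 went down further and 6 returned. IZH4, OLE1 and GDH3 are among the first kind, and GPM1, PIR1, PIR3, GRE2 and YLR162W among those that fell back.

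CO also removes oxygen and in addition binds reduced heme, and its 3 arrays of the same times allow the N2 values to be set beside it. Both gases are ratios to air cells of the corresponding time, which they may share. Of 5716 ORFs with values on all 6 arrays, 1 differed between the gases at an adjusted p under 0.05 by limma (0.0175%), and 494 had an unadjusted p under 0.05. It was YHB1 (YGR234W), the flavohemoglobin that detoxifies nitric oxide. Its log2 ratios were 0.66, 0.59 and 1.00 in N2 and 2.63, 2.45 and 3.00 in CO, and the gases did not overlap. The difference, CO minus N2, was 1.94 ± 0.21 (adjusted p = 0.0473; 95% interval 1.46 to 2.43). The call was lost when each array was centred on its median and without any 1 of the 6 arrays.
Genes that led in N2 had like values in CO in some cases. SUT1 had a mean of 1.57 in N2 and 1.62 in CO (interval of the difference -0.48 to 0.58), and ENO2 of 1.05 and 0.92 (-0.51 to 0.27). The spread was too wide to say so for others: IZH4 had means of 2.34 and 1.10 with an interval of -3.07 to 0.59, and RNR1 of -2.68 and -1.49 with one of 0.16 to 2.22 (adjusted p = 0.573). Among the lists, the medians of the mean ratio in N2 and in CO were -0.71 and -0.76 for ribosome biogenesis, -0.86 and -0.72 for the large subunit, 0.46 and 0.37 for glycolysis, 0.61 and 0.15 for seripauperins and -0.35 and 0.19 for the tricarboxylic acid cycle. List medians were not tested between the gases.

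The other N2 arrays place the period in time. Each of them is 1 array and was assumed to vary as the 3 arrays of 30 to 60 min do. Against these, 1 ORF of 5809 differed at 15 min (0.0172%; 330 at an unadjusted p under 0.05) and 1 at 120 min (0.0172%; 621 at an unadjusted p under 0.05) by limma. Both rested on a lone value far from the other arrays. RPL3 was at -3.58 at 15 min and at 0.50, 0.13 and 0.46 later. HNT2 was at -6.32 at 120 min and at 0.56, -0.43 and 0.23 before. The 15 min test here carries the error of the 15 min array, which the subtraction of the 15 min ratio leaves out.

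By 24 h the picture had changed: 876 ORFs were higher at 24 h than at 30 to 60 min (15.1%) and 764 were lower (13.2%). Of the 866 members called higher against air that entered this test, 240 were higher still at 24 h and 103 were back toward air or below it; of the 1006 called lower, 174 were lower still and 90 were back. A further 1033 ORFs that were not called at 30 to 60 min differed at 24 h. Without the 45 min array 466 differences were called in place of 1640. Each ratio is against air cells of its own time. A shift of the N2 cells between times cannot be told apart from a shift of the air cells.
Some genes of respiration crossed from below air to above it. SFC1, at -1.28 to -0.86 in the hour, was at 1.86 at 24 h, a difference of 2.95 ± 0.29 (adjusted p = 0.00231). HAP4 went to 2.03, CYT1 to 1.69, IDH1 to 0.93, MLS1 to 0.86 and MRPS8 to 1.42, each with all 3 earlier values below 0. Of the 53 mitochondrial ribosomal protein genes 24 were higher at 24 h than in the hour, as were 7 of 19 of the tricarboxylic acid cycle. FAR1 went to 2.14, ERG3 to 0.95 and FTR1 to 0.36.
Some glycolytic and fermentation genes crossed the other way. ENO2, at 1.03 to 1.06 in the hour, was at -0.93 at 120 min and -2.64 at 24 h, a difference of -3.69 ± 0.26 (adjusted p = 0.00121). PDC6 went to -2.88 and GPM1 to -1.15, and 11 of 18 glycolytic genes were lower at 24 h than in the hour, with 3 higher, GLK1 among them at 3.02. MEP1, GAP1 and FIT2, all above air in the hour, were at -0.48, -0.70 and -0.22.
Other genes went further the same way: HXT6 reached 4.99, HXT4 4.27, HXT3 3.59, SPI1 4.50 and YGP1 3.55, while UTP6 fell to -3.42 and GPP1 to -3.91. RNR1 and UPS2 were nearer to air at 24 h, at -0.84 and -0.11. Of these 24 h differences, those of RNR1 (adjusted p = 0.0912), UTP6 (0.0561), FTR1 (0.0646), GAP1 (0.0656), GPM1 (0.0764) and FIT2 (0.0518) were lost without the 45 min array, and that of UTP6 (0.0606) also without the 30 min array.

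**Figure D5:**
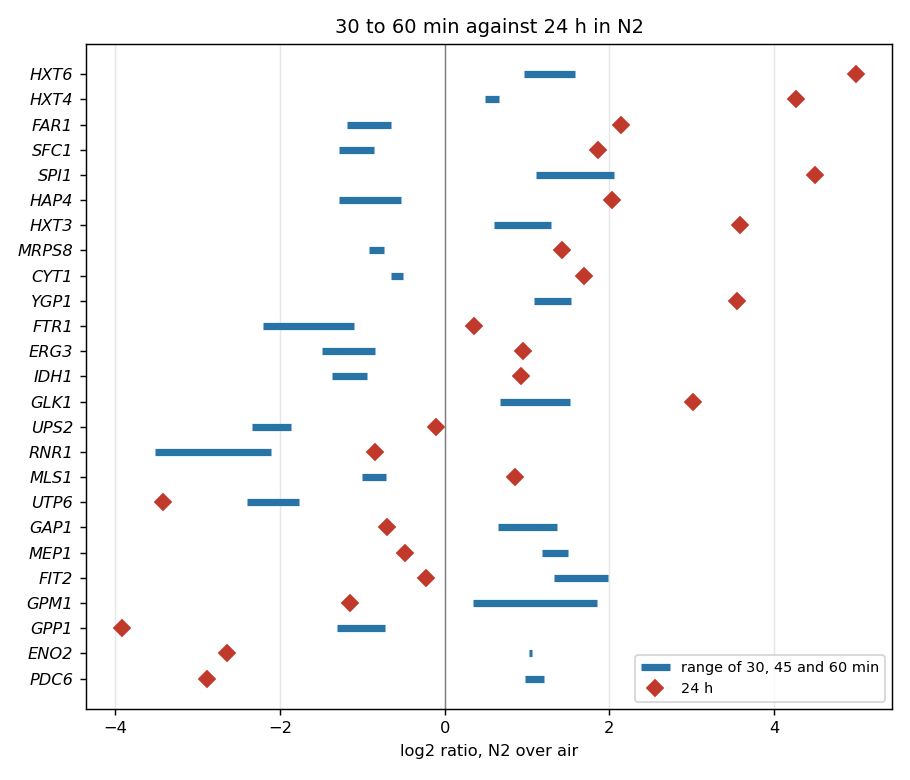
Log2 ratio of N2 over air (x axis) for 25 genes whose 24 h value differed from 30 to 60 min. Bars give the range of the 30, 45 and 60 min arrays and diamonds the 24 h array; SFC1, FAR1 and HAP4 move from below 0 to above it, and ENO2, PDC6 and GPM1 from above to below.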

How the data were processed

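RNA from N2-exposed (Cy5) and air-exposed (Cy3) cells was hybridised to 2-colour arrays, per the labels. The values were used as deposited by the authors: log2 ratios, 1 per ORF and array, to 2 decimals. The log base and direction are assumed; of background correction, normalization, centring, platform, probes and signal over background, none is stated (not given in the sources used here). ORF names were matched to the R64 annotation for symbols alone (5651 of 6150), and no coordinates are printed, as the array's build is unknown.

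The 3 N2 arrays of 30, 45 and 60 min were analysed in R 4.3.3 by limma 3.58.1 (lmFit, eBayes; 2 residual and 4.5 prior degrees of freedom; Benjamini-Hochberg over all ORFs tested; threshold 0.05). CO minus N2 used 6 arrays, and the other N2 times were contrasted in a fit of the 6 N2 arrays. The number of arrays limits the precision. Both gases were set against air cells of the corresponding time, and whether they share those cells is not stated in the labels. Deviations from the gas means at matching times correlated at r = 0.175, 0.118 and 0.223. At unlike times r lay between -0.227 and 0.099.

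Members, lists, naming rule and tests were chosen with earlier results of these data known. Named were up to 12 annotated called genes at each end, up to 4 called per list, all regulators, hypoxic genes and strain deletions, called differences between gases or times, and genes chosen after their values were seen where said. Of 1043 list symbols 6 were unmatched. The fits were tested on simulated data. Alternatives were other scalings, filters, spreads and weights, subtraction of the 15 min ratio, and leaving out each array. Promoter motifs were not analysed here. A result that needs a withheld item is not reported here.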

Additional observations from a re-analysis of the deposited data

Results flagged for a closer look

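Each value here is a difference between gases or between times in N2 that passed an adjusted p of 0.05 by limma. The ratios compared are each against air cells of their own time, and no explanation was tested. YHB1 differed between the gases by 1.94 (CO minus N2). RPL3 differed by -3.94 at 15 min and HNT2 by -6.44 at 120 min from the mean of 30 to 60 min, each on 1 extreme value.

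Over all ORFs tested, 15.1% were higher and 13.2% lower at 24 h than at 30 to 60 min, and the list counts here are to be read beside these shares. At 24 h against 30 to 60 min, 6 of 18 genes of the glyoxylate shunt, gluconeogenesis and other acetate use were higher and 1 was lower. Among them PCK1, which opens gluconeogenesis, was higher by 5.06, SFC1 by 2.95 and MLS1 by 1.68. HAP4 was higher by 2.82, CYT1 by 2.27 (4 of 16 genes of its list were higher), MRPS8 by 2.27 (24 of 53) and IDH1 by 2.08 (7 of 19). Of 18 genes of hexose transport and glucose sensing 8 were higher and 3 lower, with HXT6 higher by 3.82, HXT4 by 3.72 and HXT3 by 2.68. The glucokinase gene GLK1 was higher by 2.04. CWP1 was higher by 5.10, SPI1 by 2.91 and YGP1 by 2.26; of the 25 general stress genes, which include the last pair, 3 were higher and 5 lower. FAR1 differed by 3.07, FTR1 by 2.16, ERG3 by 2.16, UPS2 by 2.03 and RNR1 by 1.84. YPR002C-A and YHR214C-B, ORFs that may share signal with relatives elsewhere in the genome, differed by 5.35 and 5.16.

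Lower at 24 h were SNO1 by -4.41, PUN1 by -4.17, YDL218W by -4.13, PHO92 by -4.04, PDC6 by -3.98, ENO2 by -3.69, GPP1 by -2.93, GPM1 by -2.24, FIT2 by -1.88, MEP1 by -1.80, GAP1 by -1.79 and UTP6 by -1.39. PHO92 stood at -4.17 at 24 h and between -0.68 and 0.46 in the hour.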

How the results depend on the processing

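Median centring, quantile normalization, a spread shared with CO, other filters on missing values and robust moderation each kept the counts within 1.5 times of 867 higher and 1007 lower, and none of these settings turned the sign of a called ORF. With array weights, which gave the 45 min array 5.093 and the others 0.485 and 0.405, 1791 were higher and 2022 lower. With the 15 min ratio subtracted 156 were higher and 341 lower, in a fit that leaves out the error of the 15 min array. Leaving out 1 array gave 0 to 569 higher and 0 to 776 lower, 0 without the 45 min array by limma (1535 at an unadjusted p under 0.05). Of the 149 named genes called, 26 were lost without the 30 min and 29 without the 60 min array.

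The single call of CO minus N2 became 0 with median centring (501 at an unadjusted p under 0.05) and 0 to 0 without any 1 array (255 to 597); with the replicate block on exposure time it stayed at 1 (624 at an unadjusted p under 0.05), and the block changed no other call. The 15 min difference gave 0 calls with the spread shared with CO and 0 to 1 without 1 array, the 120 min difference 8 and 0 to 1, and the 24 h difference 466 to 1718 without 1 array.

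Signs turned with the 15 min ratio subtracted for YDJ1 (0.12), PIR1 (-0.20), PIR3 (-0.13) and MFA1 (-0.083), which had been called, and for HEM14 (0.023), HMG1 (0.21), TIR4 (0.08), UPC2 (0.063), SPT23 (-0.26), CYC8 (-0.0067), HAP2 (-0.21), CPR1 (-0.67) and IZH2 (-0.28), which had not. Among uncalled genes they also turned with array weights for AAC3 (0.031), HMG1 (0.33), TIR4 (0.56) and IZH2 (-0.041), with quantile normalization for TIR4 (0.028) and AUS1 (0.01), and on leaving out 1 array, with means ranging as given, for HAP5 (-0.14 to 0.015), AAC3 (-0.20 to 0.14), HMG1 (-0.27 to 0.10), TIR4 (-0.41 to 0.43), AUS1 (-0.26 to 0.17), URA3 (-0.19 to 0.20), SPT23 (-0.07 to 0.12), CYC8 (-0.12 to 0.14) and HYP2 (-0.04 to 0.12). The cause was not tested.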

Other observations

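Several genes outside the lists were picked after their values were seen. Membrane phospholipid genes went both ways: CHO1, which makes phosphatidylserine, was at 1.64, 1.55 and 1.30 on the 30, 45 and 60 min arrays (mean 1.5 ± 0.14), and ITR1, the inositol transporter, at 1.30, 1.21 and 1.31 (1.27 ± 0.13), while INO1, which makes inositol, was at -2.69, -1.57 and -1.22 (-1.83 ± 0.28). PSD1, which turns phosphatidylserine into phosphatidylethanolamine in mitochondria, was at 0.29, 0.83 and 0.92, and the activator INO4 at 0.43, 0.69 and 1.00; the repressor OPI1, at 0.08, 0.00 and 0.76, did not pass. INO1 was lowest at 30 min and had returned to -0.40 at 120 min, when CHO1 was at 2.02. PSD1 (adjusted p = 0.0973) and INO4 (0.0625) were lost without the 60 min array.

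Members of 1 family gave different calls. In the family of IZH4, IZH1 rose through 0.87, 1.22 and 1.97, whereas IZH2 (0.23, -0.09 and 0.25) and IZH3 (-0.16, -0.32 and -0.09) did not pass. Beside RNR1, the small-subunit gene RNR4 was at -0.69, -0.19 and -0.67 (adjusted p = 0.0468, lost without any 1 array, 0.117 to 0.153), and RNR2 (0.16, 0.76 and 0.07) and RNR3 (0.17, 0.46 and 0.08) did not pass. No difference between family members was tested.

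XBP1, a repressor made under stress, was at 1.09, 1.94 and 1.35, and MFA1, a mating pheromone gene, at 1.58, 1.08 and 1.08 after 1.33 at 15 min. BDH2 was at 1.44, 1.23 and 1.75 and its neighbour BDH1, a butanediol dehydrogenase, at 1.29, 0.55 and 1.15. CCW12, a major wall protein, was at 1.28, 1.27 and 1.18 and CCW22 at 1.09, 1.07 and 1.68; they may share signal. YRO2, a membrane protein gene, deepened through -0.80, -1.62 and -2.23 to -4.18 at 120 min. Without the 45 min array each of these calls had an adjusted p of 0.0527 or more.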
